A study of Mus musculus with 30 samples.

Results

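The genes described here are 41 effectors of G protein-coupled receptor signalling, taken by gene name from the 42439 gene identifiers counted in mouse neural retina. They are 8 adenylyl cyclases, 10 G protein alpha subunits, 4 phospholipase C beta enzymes, 3 inositol trisphosphate receptors, 2 protein kinase C isoforms, 4 phosphodiesterases of the PDE4 family, 6 subunits of cAMP-dependent protein kinase (PKA), the transcription factors Creb1 and Crem, and the G protein inhibitors Rgs2 and Rgs4. The list names effectors that lie downstream of the receptors of the drugs tested. All 41 were found in the count tables. In each of the 2 experiments 39 passed the filter on low counts, and Pde4c and Plcb2 did not.

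Poly(A) RNA was sequenced from 30 libraries in 10 groups of 3. All mice carried both disrupted genes (Abca4-/-Rdh8-/-) on the C57BL/6J background. They were males and females of 4 to 6 weeks of age, kept at 10 lux or less during the 12 h light phase. Abca4 and Rdh8 clear all-trans-retinal from photoreceptors, and bright light injures the photoreceptors of mice without them. The mixture experiment had 4 groups, namely DMSO without bright light, DMSO before light, BMT before light (bromocriptine, metoprolol and tamsulosin) and MDB before light (metoprolol, doxazosin and bromocriptine). The single-drug experiment had 6 groups, namely its own DMSO groups without and with light and the drugs bromocriptine (BRM), metoprolol (MTP), tamsulosin (TAM) or doxazosin (DOX) before light. Injections were intraperitoneal, 30 min before 30 min of white light at 10000 lux, and retinas were collected 24 h later. No group received a drug without light, no wild-type retina was included, and neither the labels nor the series text states a dose. Nothing in the labels ties a library to one animal, so the p-values below measure only the spread between libraries, which may be technical.

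In this pathway a receptor activates a G protein, whose alpha subunit then acts on an enzyme. Gs raises and the Gi family lowers the activity of adenylyl cyclases, which make cAMP. cAMP activates PKA, PDE4 enzymes break it down, and PKA can phosphorylate the transcription factors CREB and CREM. Gq and its relatives activate phospholipase C beta, which yields inositol trisphosphate, the ligand of calcium channels in the endoplasmic reticulum, and diacylglycerol, which activates protein kinase C. Of the drugs, bromocriptine activates dopamine receptors of the D2 type, which couple to Gi. Metoprolol blocks beta-1 adrenergic receptors, which couple to Gs, while tamsulosin and doxazosin are blockers of alpha-1 adrenergic receptors, which couple to Gq.

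Libraries held 18.5 to 25.8 M counts in the mixture experiment and 12.0 to 22.2 M in the single-drug experiment. Levels are given as CPM, counts per 1 M after scaling of library size, for comparisons of 1 gene between groups, and as FPKM, which also divides by transcript length, for comparisons between genes. Abca4 stood at 390.1 to 919 CPM and Rdh8 at 24.8 to 46.9 CPM over the mixture experiment, and at 319.8 to 821 and 19.4 to 42.2 CPM over the single-drug experiment. Whole-gene counts cannot check a partial deletion. The labelled tissue fitted its rod markers, with summed CPM of 75139 to 89254 without light in the mixture experiment. Lens-fibre RNA varied between libraries. The lens score, a mean log2 CPM over 6 lens-fibre genes, ranged from 0.319 to 8.84 over all libraries. Within the BMT group it ranged from 0.319 to 7.12. Pigment epithelium markers varied within groups too. Their sum spread most in the single-drug no-light group, from 241 to 1297 CPM, and least with BMT, from 698 to 938 CPM. The part of pigment epithelium RNA in the members' values was not tested.

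Among the members 3 rose with light in both experiments and have a promoter in the RefSeq table: Creb1, Gna13 and Plcb4. Their promoters are shown because these genes moved in the same direction in both experiments. Each window holds the 250 bases before the RefSeq start (GRCm38.p6), 5′ to 3′ on the plus strand, with GC boxes (GGGCGG, or CCGCCC where it lies on the other strand) in capitals. The windows are chr1:64532554-64532803 for Creb1, chr11:109362544-109362793 for Gna13 and chr2:135659297-135659546 for the upstream start of Plcb4. The annotation of the deposited files starts Creb1 at 64532645 and Plcb4 at 135659011, so their windows overlap transcribed sequence there, and it starts Gna13 at 109362831.
Creb1: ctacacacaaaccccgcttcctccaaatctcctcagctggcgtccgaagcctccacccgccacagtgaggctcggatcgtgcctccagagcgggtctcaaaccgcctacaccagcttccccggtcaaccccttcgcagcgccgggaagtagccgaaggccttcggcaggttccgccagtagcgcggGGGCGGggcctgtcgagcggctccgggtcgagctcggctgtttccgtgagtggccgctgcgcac
Gna13: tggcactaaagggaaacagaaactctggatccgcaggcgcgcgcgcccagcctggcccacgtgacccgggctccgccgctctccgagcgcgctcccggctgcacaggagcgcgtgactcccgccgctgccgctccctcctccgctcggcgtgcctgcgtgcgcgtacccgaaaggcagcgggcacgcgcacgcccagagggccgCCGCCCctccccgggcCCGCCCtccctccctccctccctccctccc
Plcb4: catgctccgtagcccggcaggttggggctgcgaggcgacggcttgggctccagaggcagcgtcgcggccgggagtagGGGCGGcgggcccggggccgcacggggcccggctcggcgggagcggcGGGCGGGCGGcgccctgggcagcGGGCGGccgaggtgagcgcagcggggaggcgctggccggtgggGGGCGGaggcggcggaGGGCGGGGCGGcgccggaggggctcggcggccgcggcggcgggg
Creb1 held 1 GC box, Gna13 held 2 and the printed Plcb4 window held 7, and the GC content was 67.6%, 76.0% and 85.2%, against a median of 52.4% over 32851 RefSeq promoters. A second RefSeq start of Plcb4, farther downstream, has a window (chr2:135764588-135764837) with 0 GC boxes and a GC content of 42.8%. A GC box was found in 32.7% of those promoters and in 32 of the 59 windows of the 34 members in the table. The full cAMP response element TGACGTCA was found in 1.55% of all promoters and in 1 member window, and its shorter form TGACG in 17.8% of all and in 15 member windows. None of the 3 printed windows holds TGACG on either strand, nor TGANTCA, TTCNNNGAA or TAATCC. Both strands were searched, TGACG lies within TGACGTCA, and a match or its absence describes only the letters of the window.

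Without light the most abundant member was Gnas, the stimulatory alpha subunit, at 428 ± 64.1 FPKM (SD, n = 3) in the mixture experiment and 404 ± 24.99 FPKM in the single-drug experiment. Prkar1a, a regulatory subunit of PKA, followed at 149 ± 5.91 and 138 ± 9.49 FPKM, and Gnao1, the abundant neuronal Go subunit, at 104 ± 2.02 and 111 ± 21.5 FPKM. The ranges of Gnas and Prkar1a did not overlap, and those of Prkar1a and Gnao1 overlapped in the single-drug experiment only. Below these 3, the catalytic PKA subunits Prkacb (55.2 FPKM) and Prkaca (53.6 FPKM), the cyclase Adcy1 (52.6 FPKM) and the Gi subunit Gnai2 (48.6 FPKM) lay closer together than the spread of Gnai2 over its libraries. Plcb2 stood at 0.0491 FPKM in the mixture experiment, and the summed counts of Pde4c rounded to 0 in its 3 no-light libraries.

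**Figure D1:**
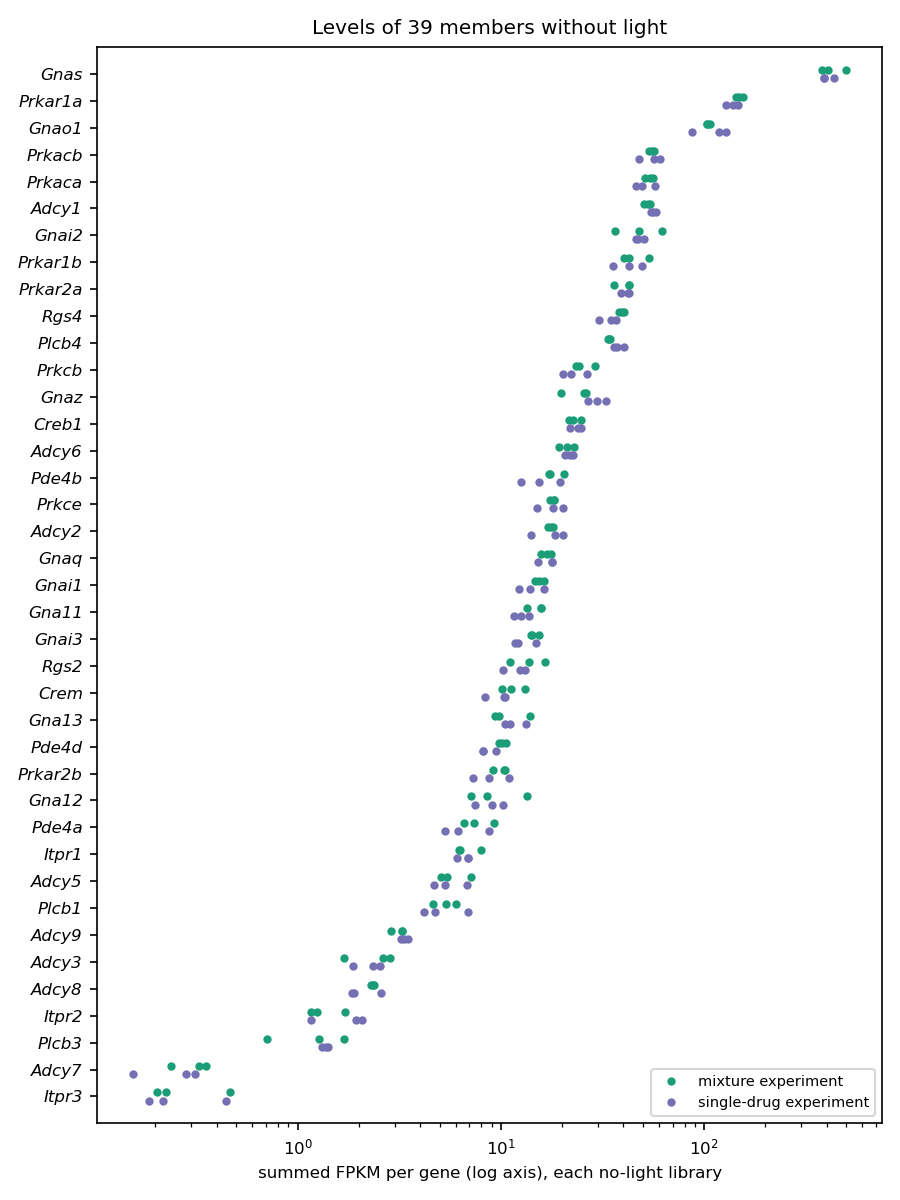
Summed FPKM per gene (log axis) of the 39 members past the filter in each of the 3 no-light libraries of both experiments, ordered by the mean of the mixture experiment. Gnas, Prkar1a and Gnao1 lead in both experiments, and Adcy7 and Itpr3 lie lowest.

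Each enzyme family was led by 1 member. Adcy1, a cyclase stimulated by calcium and calmodulin, held 49.9% of the summed cyclase FPKM without light in the mixture experiment and 51.5% in the single-drug experiment. Adcy6, a cyclase that calcium and Gi inhibit, held 20.02% and 19.99%, and Adcy2 16.7% and 16.1%. Plcb4 held 83.7% and 85.01% of the phospholipase C beta FPKM, Itpr1 80.4% and 76.8% of the inositol trisphosphate receptors, and Pde4b 50.7% and 50.7% of the PDE4 family. The plot of FPKM levels gives the other members.

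The first comparison asked what bright light did to these genes 24 h later, in the groups given DMSO. A gene was called when edgeR's quasi-likelihood test gave a Benjamini-Hochberg adjusted p under 0.05 over all genes tested. In the mixture experiment 5 of 39 members rose (Adcy1, Creb1, Crem, Gna13 and Plcb4) and 1 fell (Adcy6), or 15.4%, while 13.2% of 16007 genes were called, 7.75% higher and 5.47% lower. In the single-drug experiment 14 of 39 rose and 4 fell (Adcy6, Gnaz, Itpr2 and Prkar2a), or 46.2%, while 24% of 16249 genes were called, 11.4% higher and 12.6% lower. With all libraries the members' count was thus near the background in the mixture experiment and above it in the single-drug experiment. The median log2 fold change of the members was 0.05 in the mixture and 0.19 in the single-drug experiment, and 0.01 and 0.02 over all genes tested. The single-drug count of 18 was 9 without light replicate 2, 9 without no-light replicate 1 and 11 without no-light replicate 3. The share of all genes called is not given for fits with a library left out, here and below. Such counts therefore do not show whether the members stayed above the background.

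Creb1, Crem, Gna13, Plcb4 and Adcy6 were called in both experiments, each in the same direction. No member's light effect was called as different between the experiments in a fit of all 30 libraries, where 0 of 40 members and 0% of 16645 genes passed with edgeR. At an unadjusted p under 0.05 the test gave 12 members and 15.1% of all genes. DESeq2 called 3 members, namely Adcy1, Gnaz and Pde4d, and 4.69% of the 9092 genes to which it gave an adjusted p. Without single-drug light replicate 3 edgeR called 1 member.

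**Figure D2:**
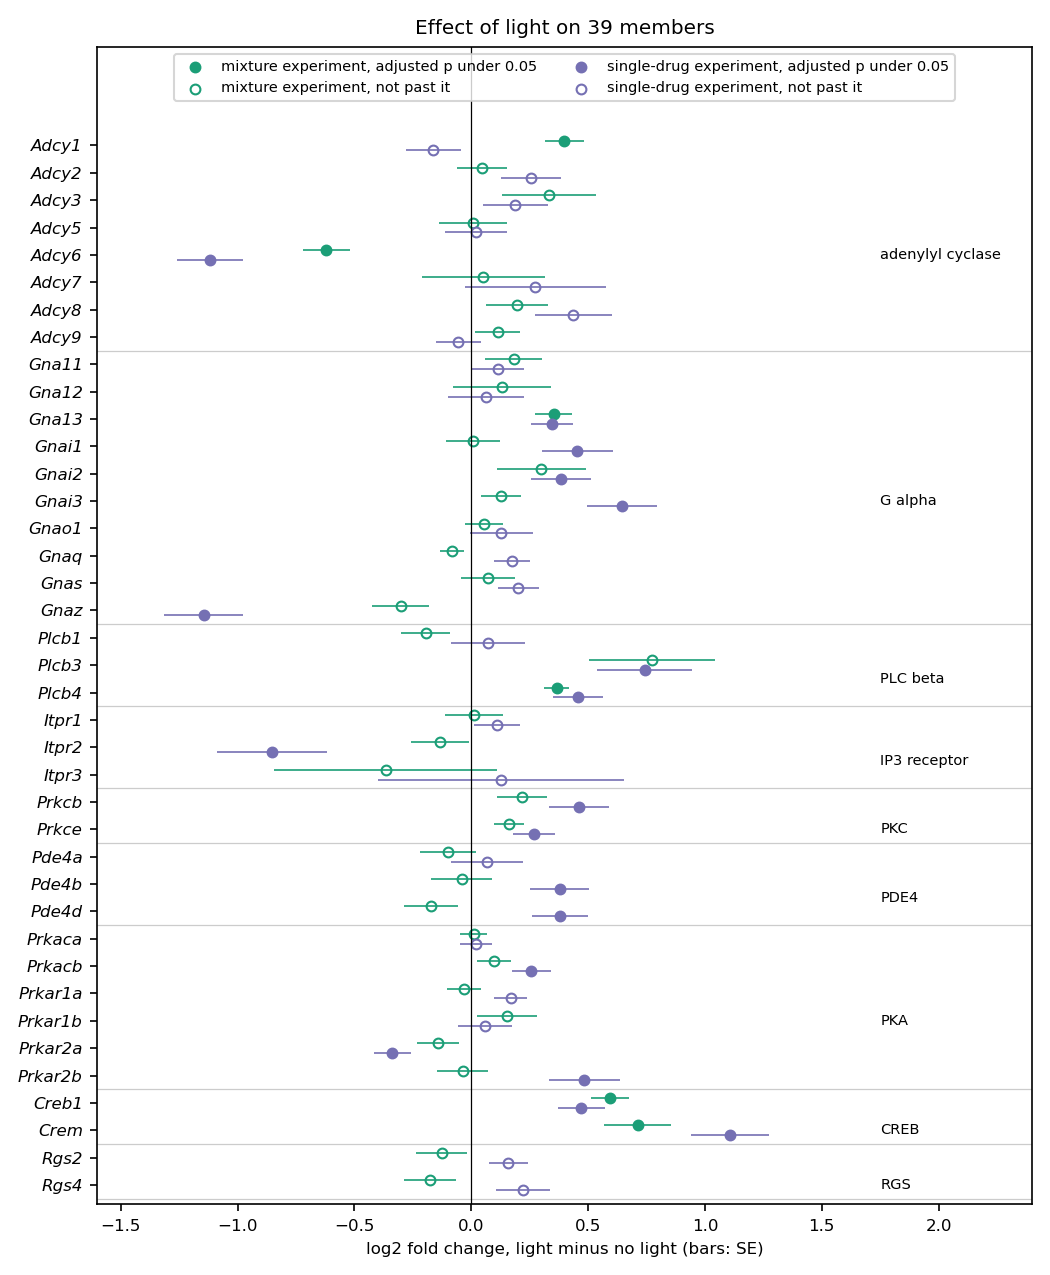
Log2 fold change of light minus no light (x axis, bars are SE) for 39 members in both experiments, grouped by family from cyclases at the top to Rgs genes at the bottom, with filled points for an adjusted p under 0.05. Crem lies farthest right among the filled points and Gnaz and Adcy6 farthest left, and most members lie nearer to 0.

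Markers of photoreceptors fell with light in the same libraries. Of 12 rod genes 10 were lower in the mixture experiment (median log2 fold change -0.83) and 12 in the single-drug experiment (-1.38). Their summed level was 75139 to 89254 CPM without and 43037 to 52629 CPM with light in the first, and 83528 to 90671 and 28291 to 38736 CPM in the second. Of 9 cone genes 6 and 7 were lower and 1 and 1 higher, with sums of 1475 to 1589.5 and 739 to 928 CPM and of 1599.7 to 1715 and 609 to 753 CPM. The astrocyte list (Gfap, Pax2 and S100b), of which Gfap is also made by stressed Müller glia, had 1 gene higher in each experiment and 1 lower in the single-drug experiment, with medians of 0.37 and -0.78. Its sum was 26.5 to 56.2 CPM without and 268 to 348 CPM with light in the mixture experiment, and 30.1 to 48.4 and 269 to 309.8 CPM in the single-drug experiment. The endothelial list had 1 of 6 genes higher in each experiment, and its sum was 89.6 to 94.3 CPM without and 174 to 220.1 CPM with light in the mixture experiment, and 79.1 to 121 and 184 to 304 CPM in the single-drug experiment. Of 8 Müller glial genes 1 was higher in each experiment and 2 and 1 were lower. Of 9 bipolar genes 1 was higher and 1 lower in the mixture experiment and 3 were lower in the single-drug experiment. The lists of microglia and leukocytes, amacrine cells and ganglion cells had at most 1 of 9, 1 of 9 and 0 of 8 genes higher and 1, 0 and 0 lower in either experiment, and no rod, cone, Müller glial or lens marker was at 0 in any group. The part of these shifts in the members' changes was not tested, and in bulk retina fewer cells of a type and less RNA per cell cannot be told apart.

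Creb1 encodes CREB, the transcription factor that PKA phosphorylates (ENSMUSG00000025958, chromosome 1, 64532645 to 64604548 in GRCm38.p3, plus strand). In the mixture experiment it stood at 155, 126 and 138 CPM without light and at 208, 207 and 216 CPM with light. The single-drug experiment gave 157, 135 and 149 CPM without and 216, 204 and 190.1 CPM with light. All light libraries lay above all no-light libraries in both experiments. The log2 fold changes were 0.59 ± 0.08 (SE; adjusted p = 0.000531) and 0.47 ± 0.10 (adjusted p = 0.00338), both by edgeR.

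With the drugs given before light, Creb1 stood at 174, 148 and 164 CPM under BMT and 136, 139 and 141 CPM under MDB. Among single drugs it stood at 142, 151 and 142 CPM under BRM, 159.7, 165 and 162 CPM under MTP, 149, 209 and 158 CPM under TAM and 157, 147 and 166 CPM under DOX. TAM replicate 2 lay within the range of the light libraries, and every other drug library lay below it. Against light Creb1 fell by 0.38 with BMT, 0.60 with MDB, 0.49 with BRM and 0.38 with DOX on the log2 scale, with adjusted p of 0.00806, 0.000674, 0.00611 and 0.0264. For MTP the value was -0.33 ± 0.10 (adjusted p = 0.0518) and for TAM -0.24 ± 0.10 (adjusted p = 0.146), neither called by edgeR. DESeq2 called the fall with MTP (-0.31, adjusted p = 0.0353). Without TAM replicate 2 the TAM value was -0.40 (adjusted p = 0.0022). The DOX call was lost without DOX replicate 1 or 2 and without light replicate 1 or 2 (adjusted p up to 0.13).

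Crem encodes the CREM activators and repressors of cAMP-responsive genes (ENSMUSG00000063889, chromosome 18, 3266048 to 3337748, minus strand). It stood at 17.8, 14.1 and 13.8 CPM without and 20.7, 29.4 and 24.7 CPM with light in the mixture experiment. Values in the single-drug experiment were 14.4, 13.3 and 15.96 CPM without and 30.4, 32.05 and 31.6 CPM with light. The ranges did not overlap in either experiment, and the rises were 0.71 ± 0.14 (adjusted p = 0.00622) and 1.11 ± 0.17 (adjusted p = 0.000343), or 1.64 and 2.15 times.

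Drug groups had 17.02, 15.4 and 13.97 CPM under BMT and 13.98, 13.8 and 15.4 CPM under MDB. The single-drug values were 17.2, 17.9 and 15.3 CPM under BRM, 15.8, 15.5 and 13.8 CPM under MTP, 14.6, 25.97 and 15.1 CPM under TAM and 17.4, 17.7 and 20.2 CPM under DOX. All 18 drug libraries lay below the light libraries of their experiment, and TAM replicate 2 was the highest of them. Crem was called lower than in light in all 6 drug groups, with log2 fold changes from -1.06 (MTP, adjusted p = 0.00197) to -0.69 (BMT, adjusted p = 0.00719). Without TAM replicate 3 the TAM call was lost (adjusted p = 0.071), and the DOX call was lost without DOX replicate 1 or light replicate 2 (adjusted p up to 0.0614).

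Crem has several starts, and transcripts from an internal promoter of the gene are known to encode short repressors (ICER) that cAMP induces. The deposited annotation lists 39 Crem transcripts and names none of them ICER. Of these, 7 start at an internal site between 3281078 and 3281769 and 32 start upstream, between 3299452 and 3337748. This split was made after the values were seen, so it is given as a description with no test. Internal-start transcripts summed to 6.99, 1.68 and 4.31 CPM without and 9.52, 16.4 and 11.2 CPM with light in the mixture experiment. In the single-drug experiment they summed to 1.40, 5.24 and 2.73 and 16.8, 10.01 and 14.5 CPM. Light libraries were above no-light libraries in both experiments, and the log2 ratios of the means were 1.52 and 2.14. Upstream-start transcripts summed to 10.8, 12.4 and 9.45 CPM without and 11.2, 12.97 and 13.5 CPM with light in the mixture experiment, and to 12.998, 8.04 and 13.2 and 13.5, 22.03 and 17.1 CPM in the single-drug experiment. Those ranges overlapped in the mixture experiment and were apart by a narrow margin in the single-drug experiment. The means of the internal-start sum under drugs ran from 3.73 CPM (BRM) to 7.85 CPM (TAM, where replicate 2 had 12.5 CPM), between the no-light means of 4.33 and 3.12 CPM and the light means of 12.4 and 13.8 CPM. For BRM, DOX and BMT they were 3.73, 3.94 and 4.35 CPM. The division of counts among overlapping transcripts is an estimate by the authors' quantifier, since the starts share most exons.

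**Figure D3:**
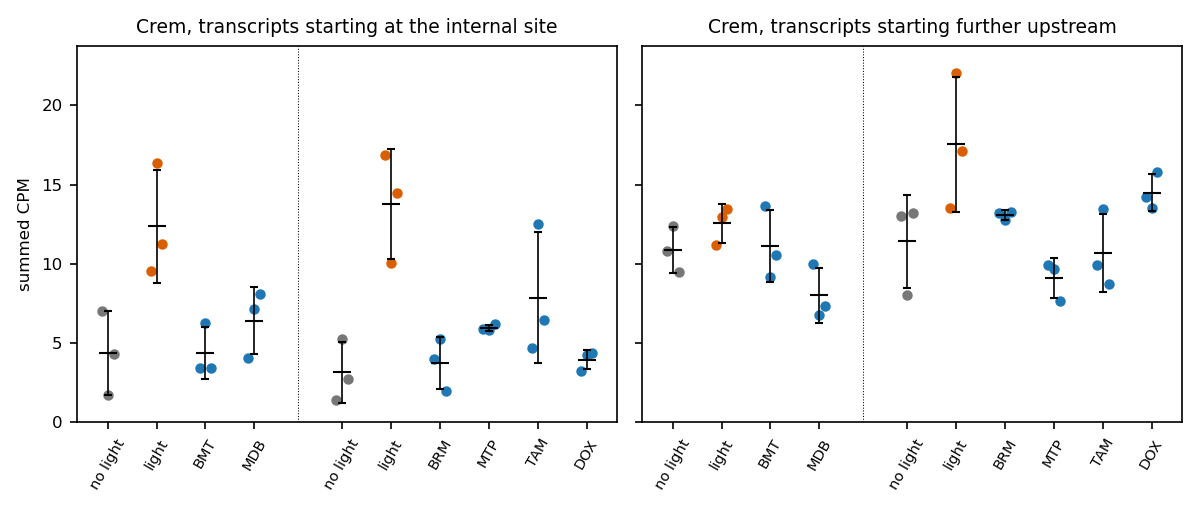
Summed CPM of Crem transcripts in each of 30 libraries, for the 7 that start at the internal site (left) and the 32 that start upstream (right), with group mean and SD as black bars. The internal-start transcripts of the 6 light libraries lie from 9.52 to 16.8 CPM, against 1.40 to 6.99 CPM in the 6 no-light libraries.

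Adcy6 was the member that fell in both experiments (ENSMUSG00000022994, chromosome 15, 98589994 to 98607633, minus strand). It stood at 109.8, 121 and 129 CPM without and 76.2, 70.7 and 87.7 CPM with light in the mixture experiment. Its levels in the single-drug experiment were 135, 125 and 122 CPM without and 62.02, 52.6 and 61.6 CPM with light. No light library reached the lowest no-light library, and the log2 fold changes were -0.62 ± 0.10 (adjusted p = 0.00193) and -1.12 ± 0.14 (adjusted p = 0.000126). The difference between these effects was -0.50 ± 0.18 and was not called (adjusted p = 0.192).

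Under drugs Adcy6 stood at 125, 103 and 124 CPM with BMT and 112, 122 and 128 CPM with MDB. It stood at 106, 120.1 and 106 CPM with BRM, 106, 111 and 103 CPM with MTP, 101, 76.97 and 122 CPM with TAM and 124, 96.9 and 91.2 CPM with DOX. Every drug library lay above every light library of its experiment, and TAM replicate 2 was the lowest of them. Adcy6 was called higher than in light in all 6 drug groups, by 0.59 (BMT, adjusted p = 0.00267) to 0.91 (BRM, adjusted p = 0.00151) on the log2 scale. These 6 calls held under every alternative tried. Per the authors' deposited table of changed transcripts in the single-drug experiment, Adcy6-201 was 0.9 higher with BRM, 0.844 with MTP, 0.719 with TAM and 0.791 with DOX than with light, and 1.09 higher without light, as log2 fold changes.

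Plcb4, the most abundant phospholipase C beta here (ENSMUSG00000039943, chromosome 2, 135659011 to 136014593, plus strand), stood at 113, 121 and 115 CPM without and 154, 156 and 140.1 CPM with light in the mixture experiment. Single-drug libraries had 122, 126 and 122 CPM without and 165, 189 and 154 CPM with light. The light libraries were higher throughout, by 0.36 ± 0.05 (adjusted p = 0.000849) and 0.46 ± 0.11 (adjusted p = 0.00581) on the log2 scale. It stood at 128, 128 and 129 CPM under BMT and 119.9, 117 and 119 CPM under MDB. Under single drugs the values were 149, 126 and 129 CPM (BRM), 135, 125 and 155 CPM (MTP), 129, 156 and 131 CPM (TAM) and 122, 126 and 148 CPM (DOX). MTP replicate 3 and TAM replicate 2 overlapped the light libraries, and the other drug libraries lay below them. Plcb4 was called lower than in light with BMT (-0.22 ± 0.05, adjusted p = 0.0147), MDB (-0.34 ± 0.05, adjusted p = 0.00195), BRM (-0.33 ± 0.11, adjusted p = 0.048) and DOX (-0.36 ± 0.11, adjusted p = 0.041). The BRM and DOX calls were lost with other size factors, with no filter on low counts and with a replicate block. The BRM call was also lost with the lens score as a covariate, without BRM replicate 2 or 3 and without light replicate 1 or 2 (adjusted p up to 0.27), and the DOX call without DOX replicate 1 or 2 and without light replicate 1 or 2 (up to 0.252). The BMT call was lost without light replicate 1 or 2 (adjusted p up to 0.0713), and without TAM replicate 2 the TAM value was -0.38 (adjusted p = 0.0329).

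Gna13, an alpha subunit of the same class as Gna12 (ENSMUSG00000020611, chromosome 11, 109362831 to 109401369, plus strand), stood at 59.9, 53.3 and 49.1 CPM without and 74.2, 66.3 and 66.8 CPM with light in the mixture experiment. The single-drug libraries had 59.1, 56.03 and 60.1 CPM without and 71.5, 82.6 and 68.4 CPM with light. The groups did not overlap, and the rises were 0.35 ± 0.08 (adjusted p = 0.0116) and 0.34 ± 0.09 (adjusted p = 0.0119). It stood at 55.9, 58.6 and 59.4 CPM under BMT and 52.1, 56.1 and 55.3 CPM under MDB. The single-drug values were 55.01, 51.6 and 53.98 CPM (BRM), 50.6, 64.9 and 57.3 CPM (MTP), 64.01, 65.97 and 57.8 CPM (TAM) and 55.04, 54.3 and 59.998 CPM (DOX). Every drug library lay below the light libraries of its experiment. Gna13 was called lower with BMT (-0.25, adjusted p = 0.0468), MDB (-0.34, 0.0176), BRM (-0.47, 0.00453), MTP (-0.36, 0.0189) and DOX (-0.39, 0.0133), and not with TAM (-0.24, 0.101). Several of these calls rested on single libraries. The BMT call was lost with other size factors, no filter, a replicate block and each library left out (adjusted p up to 0.185). The mixture light call was lost without light replicate 1 or no-light replicate 3 (up to 0.0626), and the single-drug light call without light replicate 2 (0.0807). The MDB call was lost without MDB replicate 1 or 3 or light replicate 1 (up to 0.089), the MTP call with the lens covariate and without MTP replicate 1 or 3 or light replicate 2 (up to 0.123), and the DOX call without DOX replicate 1 or light replicate 2 (up to 0.106).

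**Figure D4:**
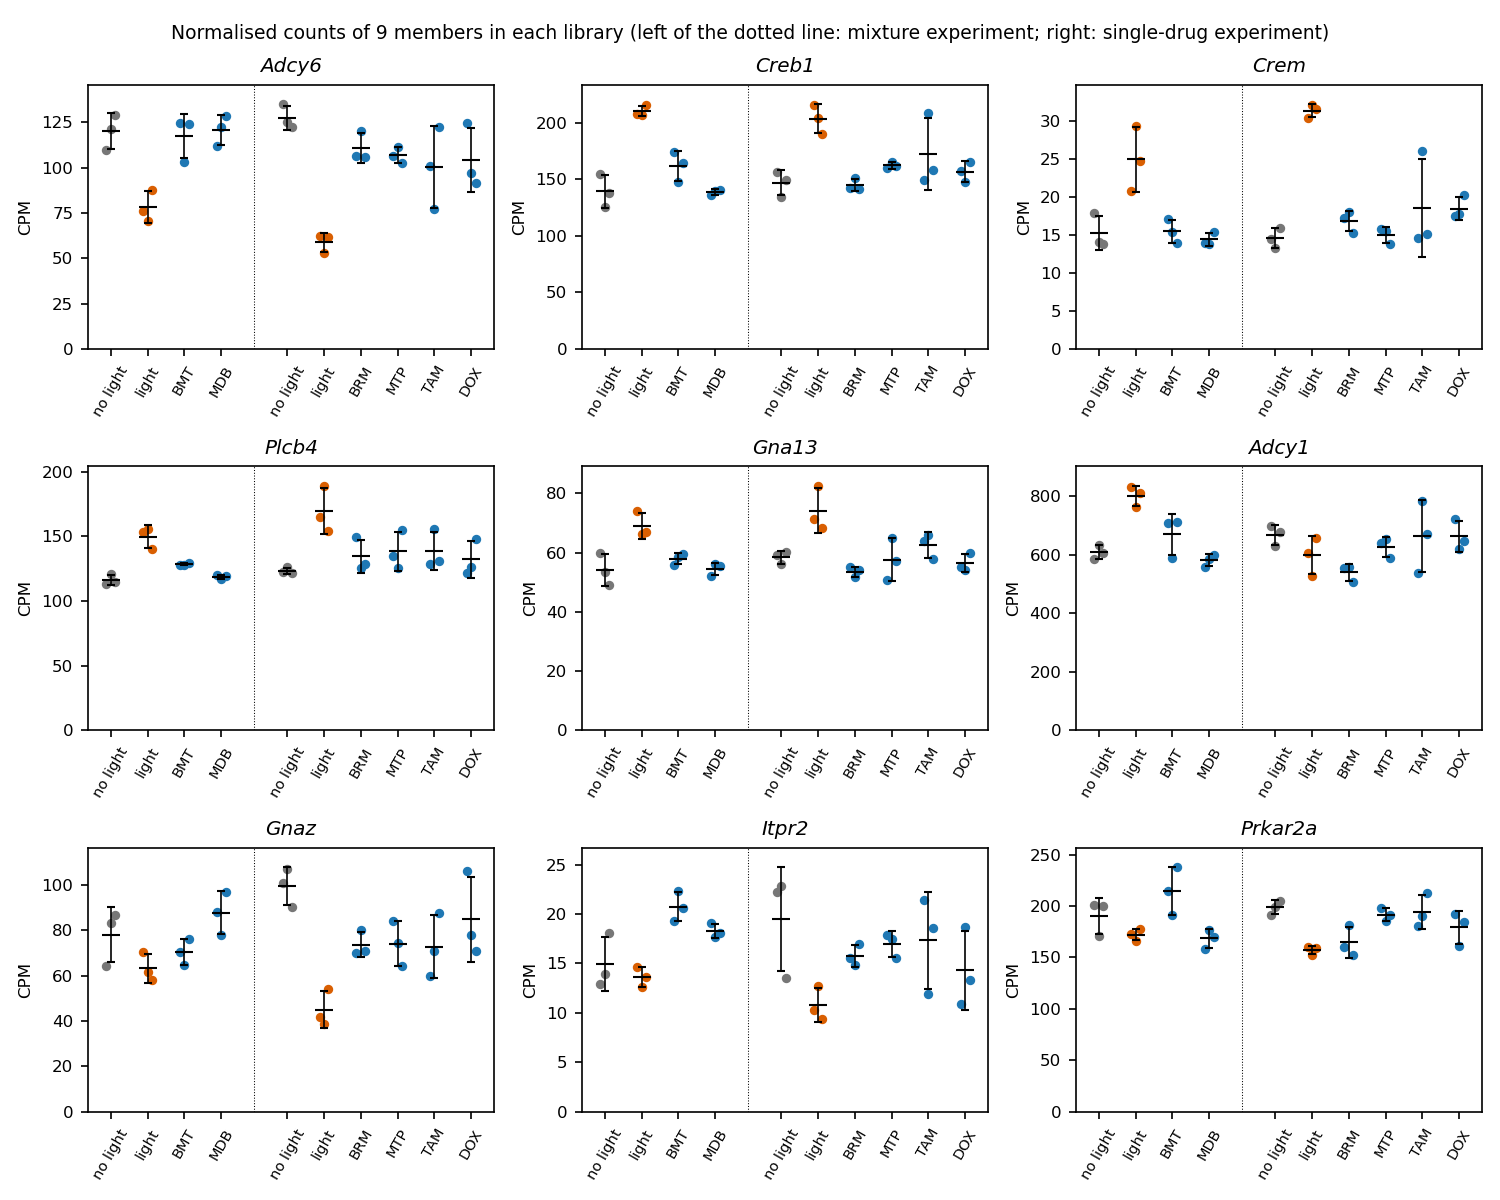
CPM of 9 members in each of 30 libraries, with group mean and SD as black bars and each axis starting at 0. Grey points are DMSO without light, orange points DMSO with light and blue points drug before light. Creb1, Crem, Plcb4 and Gna13 are highest in the orange groups and Adcy6 is lowest there, and 1 TAM library of Creb1 and Crem stands near the orange points.

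Adcy1 was called higher with light in the mixture experiment and was not called in the single-drug experiment (ENSMUSG00000020431, chromosome 11, 7063489 to 7178506, plus strand). It stood at 586, 634 and 607 CPM without and 832, 764 and 811 CPM with light there. In the single-drug experiment it stood at 699, 632 and 677 CPM without and 607, 529 and 658 CPM with light. The mixture groups were apart and the single-drug groups overlapped, with log2 fold changes of 0.40 ± 0.08 (adjusted p = 0.00722) and -0.16 ± 0.12 (adjusted p = 0.346). The difference between the effects was -0.56 ± 0.15 (95% interval -0.87 to -0.25), which edgeR did not call (adjusted p = 0.118) and DESeq2 called (adjusted p = 0.0141). Adcy1 stood at 710.0, 591 and 711 CPM under BMT and 559, 587 and 600.0 CPM under MDB, all below the light libraries. Both groups were called lower than light, at -0.26 ± 0.08 (adjusted p = 0.0497) and -0.46 ± 0.08 (adjusted p = 0.00391). The BMT call was lost with other size factors, no filter, a replicate block and each library left out (adjusted p up to 0.165). Under single drugs the values ran from -0.15 (BRM) to 0.15 (DOX), with no call.

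Gnaz encodes Gz, a member of the Gi family (ENSMUSG00000040009, chromosome 10, 74967177 to 75016907, plus strand). It stood at 64.3, 83.1 and 86.7 CPM without and 70.4, 61.6 and 57.9 CPM with light in the mixture experiment. Its single-drug levels were 101, 107 and 90.2 CPM without and 41.8, 38.7 and 54.1 CPM with light. The groups overlapped in the first and were well apart in the second, with log2 fold changes of -0.30 ± 0.12 (adjusted p = 0.14) and -1.15 ± 0.17 (adjusted p = 0.000278). The difference, -0.85 ± 0.22 (95% interval -1.31 to -0.39), was not called by edgeR (adjusted p = 0.117) and was called by DESeq2 (adjusted p = 0.0149). Gnaz stood at 70.5, 64.8 and 76.2 CPM under BMT and 87.95, 77.9 and 96.9 CPM under MDB. Under single drugs it stood at 69.9, 79.98 and 70.99 CPM (BRM), 83.9, 74.2 and 64.2 CPM (MTP), 59.9, 70.8 and 87.6 CPM (TAM) and 106, 77.7 and 70.8 CPM (DOX). Only the BMT libraries overlapped light. The rises over light were 0.47 (MDB, adjusted p = 0.0337), 0.71 (BRM, 0.0117), 0.72 (MTP, 0.0133), 0.70 (TAM, 0.0153) and 0.92 (DOX, 0.0047), all called. The MDB call was lost without MDB replicate 1 or 3 or light replicate 2 or 3 (up to 0.131), and the BRM call without BRM replicate 2 or light replicate 2 (up to 0.0646). The MTP and TAM calls were lost without light replicate 1 or 2, without MTP replicate 1 (up to 0.0674) and without TAM replicate 3 (up to 0.105).

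Itpr2, an inositol trisphosphate receptor (ENSMUSG00000030287, chromosome 6, 146108299 to 146502223, minus strand), stood at 12.9, 13.9 and 18.04 CPM without and 14.7, 12.7 and 13.6 CPM with light in the mixture experiment. Its levels were 22.2, 22.9 and 13.5 CPM without and 10.3, 12.7 and 9.36 CPM with light in the single-drug experiment. The groups overlapped in the first (-0.13 ± 0.12, adjusted p = 0.54) and not in the second (-0.85 ± 0.24, adjusted p = 0.0155), where no-light replicate 3 lay near the light libraries. The single-drug call was lost without light replicate 3 and without no-light replicate 1 or 2 (adjusted p up to 0.0657). Under MDB it stood at 19.1, 17.7 and 18.03 CPM, under BRM at 15.5, 14.8 and 16.9 CPM, under MTP at 17.9, 17.4 and 15.5 CPM, under TAM at 21.4, 11.9 and 18.6 CPM and under DOX at 10.9, 18.7 and 13.3 CPM. TAM replicate 2 and DOX replicate 1 lay within the light range and the other libraries above it. With BMT it stood at 19.3, 22.3 and 20.7 CPM, above both the light and the no-light libraries, and was called higher than light by 0.60 ± 0.12 (adjusted p = 0.00654). The other drug values against light ran from 0.41 (DOX) to 0.68 (TAM) with no call by edgeR. DESeq2 called Itpr2 higher than light with MDB (0.42, adjusted p = 0.0259), MTP (0.67, 0.0423) and TAM (0.69, 0.0339) as well. Without no-light replicate 3 the mixture light value was 0.02, and without TAM replicate 2 the TAM value was 0.89 (adjusted p = 0.0162).

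Prkar2a encodes the RII-alpha regulatory subunit of PKA (ENSMUSG00000032601, chromosome 9, 108689314 to 108750436, plus strand). It stood at 201, 170.4 and 199.6 CPM without and 173, 166 and 178 CPM with light in the mixture experiment. The other experiment gave 192, 199 and 205 CPM without and 160.2, 152 and 159 CPM with light. The first groups overlapped (-0.14 ± 0.09, adjusted p = 0.345) and the second did not (-0.34 ± 0.08, adjusted p = 0.00641). It stood at 215, 191 and 238 CPM under BMT, 198, 186 and 191 CPM under MTP and 180.2, 190.0 and 212 CPM under TAM, all above the light libraries. Under MDB it stood at 159, 177 and 170.2 CPM and under BRM at 161, 182 and 152 CPM, both overlapping light, and under DOX at 193, 161 and 184 CPM, above light by a narrow margin. None of these 3 was called by edgeR, with values of -0.03, 0.07 and 0.19. DESeq2 called the DOX value (0.22, adjusted p = 0.0499). Prkar2a was called higher than light with BMT (0.32 ± 0.09, adjusted p = 0.0311), MTP (0.29 ± 0.08, adjusted p = 0.0329) and TAM (0.31 ± 0.08, adjusted p = 0.0234). The MTP call was lost with a replicate block, the lens covariate and each library left out (up to 0.116). The BMT call was lost without BMT replicate 1 or 3 or any light library (up to 0.124), and the TAM call without TAM replicate 3 or any light library (up to 0.147).

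The other members called with light were called by edgeR in the single-drug experiment only, and there all 10 rose. Gnai1, Gnai2 and Gnai3, the inhibitory alpha subunits of Gi proteins, were among them: Gnai3 (0.64 ± 0.15, adjusted p = 0.00547), Gnai1 (0.45 ± 0.15, 0.0396) and Gnai2 (0.38 ± 0.13, 0.0422). In the mixture experiment their values were 0.13, 0.01 and 0.30, none called. Plcb3 rose by 0.74 ± 0.20 (adjusted p = 0.0143) from 5.74, 5.25 and 5.79 CPM to 8.30, 9.66 and 10.1 CPM, and its mixture value was as large, 0.77 ± 0.27, without a call by edgeR (adjusted p = 0.086). DESeq2 called Plcb3 in the mixture experiment (0.76, adjusted p = 0.0437). Both protein kinase C isoforms rose, Prkcb by 0.46 (adjusted p = 0.0165) and Prkce by 0.27 (0.0431), as did the cAMP phosphodiesterases Pde4b by 0.38 (0.0417) and Pde4d by 0.38 (0.0302). In the mixture experiment Prkcb and Prkce had values of 0.22 and 0.16, and Pde4b and Pde4d of -0.04 and -0.17, with no call. Of the PKA subunits, Prkacb rose by 0.26 (adjusted p = 0.0371) and Prkar2b by 0.48 (0.0316), while Prkaca, the other catalytic subunit, had 0.02 (0.857). The count of these calls depended on single libraries, as given above.

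Members with no call in either light comparison were the cyclases Adcy2, Adcy3, Adcy5, Adcy7, Adcy8 and Adcy9, the G alpha subunits Gnas, Gnao1, Gnaq, Gna11 and Gna12, and Plcb1, Itpr1, Itpr3, Pde4a, Prkaca, Prkar1a, Prkar1b, Rgs2 and Rgs4. For Gnas the values were 0.07 (95% interval -0.18 to 0.32) and 0.20 (0.02 to 0.38), and for Gnaq -0.08 (-0.20 to 0.03) and 0.17 (0.01 to 0.34). Rgs2 and Rgs4, which speed the shut-off of Gq and Gi proteins, had -0.13 and -0.18 in the mixture and 0.16 and 0.22 in the single-drug experiment. Itpr3 had the widest spread, with SE of 0.48 and 0.53. It stood at 6.41, 3.23 and 5.38 CPM under MDB and 5.49, 4.75 and 5.50 CPM under BRM against 1.84, 2.13 and 1.90 and 2.17, 2.73 and 3.23 CPM with light. Neither group was called by edgeR, and DESeq2 called MDB (1.36, adjusted p = 0.0433). Single libraries of other groups were as high, with 5.84 CPM in TAM replicate 1 and 5.59 CPM in DOX replicate 2. Lens scores were 7.03 to 7.5 under MDB, 6.03 to 8.68 under BRM, 7.14 in TAM replicate 1 and 8.0 in DOX replicate 2, against 2.11 to 6.58 with light in the mixture and 5.89 to 6.22 with light in the single-drug experiment. Their part in the Itpr3 values was not tested.

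The second comparison asked how the members stood when drugs preceded light, against light alone. All drug groups of an experiment are set against the same 3 light libraries, which also enter the light comparison, so these results are not independent of it or of each other. With BMT 3 members were higher (Adcy6, Itpr2 and Prkar2a) and 6 lower (Adcy1, Creb1, Crem, Gna13, Plcb4 and Prkce), while 17.7% of all genes were called, 7.96% higher and 9.78% lower. With MDB 2 were higher (Adcy6 and Gnaz) and 5 lower (Adcy1, Creb1, Crem, Gna13 and Plcb4), against 9.63% of all genes, 3.70% higher and 5.93% lower. The BMT count of 9 was 5 without BMT replicate 3 and 4 without light replicate 1 or 2, with no share of all genes given beside it.

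With BRM 2 members were higher (Adcy6 and Gnaz) and 4 lower (Creb1, Crem, Gna13 and Plcb4), against 14.4% of all genes, 7.08% higher and 7.32% lower. With MTP 3 were higher (Adcy6, Gnaz and Prkar2a) and 2 lower (Crem and Gna13), against 10.3%, 5.37% higher and 4.91% lower. With TAM 3 were higher (Adcy6, Gnaz and Prkar2a) and 2 lower (Crem and Plcb3), against 10.6%, 6.60% higher and 4% lower. With DOX 2 were higher (Adcy6 and Gnaz) and 5 lower (Creb1, Crem, Gna13, Gnai3 and Plcb4), against 11.9%, 6.79% higher and 5.06% lower. Set beside these shares, the members called were 23.1% of 39 with BMT, 17.9% with MDB, 15.4% with BRM, 12.8% with MTP, 12.8% with TAM and 17.9% with DOX. Shares of all genes are not given for the fits with a library left out that follow. The MTP count of 5 was 2 without MTP replicate 1 or light replicate 2 and 3 without MTP replicate 3 or light replicate 1. The TAM count of 5 was 8 without TAM replicate 2, 1 without TAM replicate 3 and 2 without light replicate 1 or 2, and the DOX count of 7 was 2 without DOX replicate 1 or light replicate 2 and 4 without light replicate 1.

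The edgeR calls outside the 9 genes described were Prkce with BMT (-0.24 ± 0.07, adjusted p = 0.027), Plcb3 with TAM (-0.69 ± 0.20, adjusted p = 0.042) and Gnai3 with DOX (-0.57 ± 0.15, adjusted p = 0.0236). DESeq2 also called Gnaq with BMT (0.18, adjusted p = 0.0155) and Itpr3 with MDB (1.36, 0.0433). It called Gnai3 lower with MTP (-0.45, 0.0291) and TAM (-0.43, 0.0399) as well. By family, the CREB pair was lower in 2 of 2 genes with BMT, MDB, BRM and DOX and in 1 of 2 with MTP and TAM. Among the 3 PDE4 genes tested and both Rgs genes none was called by gene sum in any of the 6 comparisons. Their medians ran from -0.20 to -0.01 for PDE4 and from -0.11 to 0.26 for the Rgs pair. In the same comparisons the rod markers moved the other way from light: of 12, 12 were higher with BMT, 10 with MDB, 10 with BRM, 12 with MTP, 12 with TAM and 11 with DOX. Summed rod levels under drugs were 71874 to 94852 CPM (BMT), 66215 to 77256 (MDB), 59387 to 73880.2 (BRM), 62341 to 77224 (MTP), 59149 to 90889 (TAM) and 61233 to 83492 (DOX). The astrocyte sum did not return to the no-light range in every group. It was 43.9 to 95.02 CPM with BMT and 38.2 to 61.8 CPM with MDB. The single-drug sums were 49.02 to 84.6 (BRM), 91.6 to 126.7 (MTP), 34.6 to 265.8 (TAM) and 177.4 to 225.5 CPM (DOX). In that experiment the sum was 30.1 to 48.4 CPM without and 269 to 309.8 CPM with light. The part of the rod and astrocyte shifts in the members' changes was not tested.

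**Figure D5:**
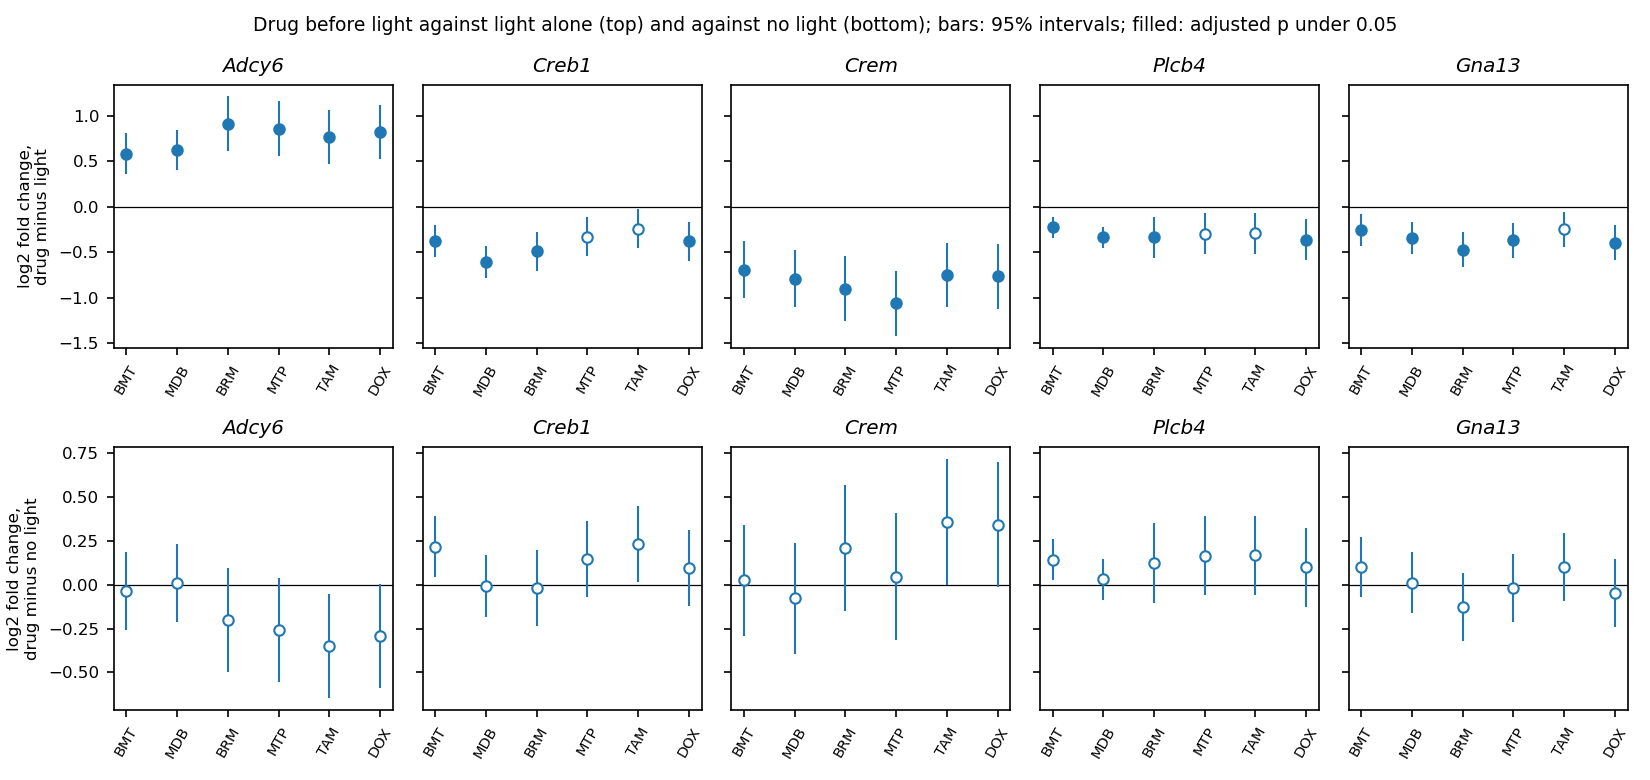
Log2 fold change with 95% interval of each drug group against light (top row) and against no light (bottom row) for the 5 members called with light in both experiments, with filled points for an adjusted p under 0.05. Adcy6 lies above 0 and the other 4 lie below 0 in the top row, and no point of the bottom row is filled.

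Against the no-light group, 0 of 39 members and 0% of all genes were called by edgeR in any of the 6 drug groups. At an unadjusted p under 0.05 there were 3 members with BMT, 2 with MDB, 13 with BRM, 11 with MTP, 3 with TAM and 5 with DOX. Over all genes the shares at that p were 6.3% with BMT, 10.3% with MDB, 15.6% with BRM, 8.59% with MTP, 8.17% with TAM and 13% with DOX. DESeq2 called 2 members, Prkar2a (-0.26, adjusted p = 0.0424) and Rgs2 (0.27, adjusted p = 0.04995), both with BRM, where it called 5.34% of the 7428 genes to which it gave an adjusted p. With the other drugs it called no member and 0.056% (BMT), 0.135% (MDB), 0.0126% (MTP), 0.0294% (TAM) and 0.233% (DOX) of such genes. Those genes numbered 23199, 16298, 23789, 23789 and 17587, so the shares have unlike denominators. These results bound the remaining differences and do not show that the groups were alike. For Adcy6 the 95% interval of drug minus no light was -0.26 to 0.19 with BMT, -0.22 to 0.23 with MDB, -0.50 to 0.09 with BRM, -0.55 to 0.04 with MTP, -0.65 to -0.05 with TAM and -0.59 to 0.004 with DOX. For Crem it was -0.29 to 0.34 with BMT, -0.39 to 0.24 with MDB, -0.15 to 0.57 with BRM, -0.31 to 0.41 with MTP, -0.002 to 0.72 with TAM and -0.02 to 0.70 with DOX. For Gnaz the values were -0.43 ± 0.17 with BRM, -0.42 ± 0.17 with MTP and -0.45 ± 0.17 with TAM, where all drug libraries lay below all no-light libraries without a call (adjusted p = 0.241, 0.581 and 0.586).

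Single transcripts were tested on the authors' normalised FPKM values, with limma on log2(FPKM + 1), a scale that understates changes of low transcripts. In the mixture experiment 64 member transcripts of 35 genes were in the table, of which 6 rose and 1 fell with light, against 8.15% of 17982 transcripts. In the single-drug experiment 15 of 65 rose and 3 fell, against 16.0% of 18483 transcripts. Creb1-001 rose in both, by 0.53 ± 0.09 (limma adjusted p = 0.00682) and 0.59 ± 0.09 (0.00056), and Creb1-004 in the mixture experiment by 0.63 ± 0.12 (0.0105). Of Plcb4, Plcb4-003 was called in the mixture experiment (0.70 ± 0.11, adjusted p = 0.00363) and Plcb4-002 in the single-drug experiment (0.49 ± 0.11, 0.00582). Of Crem, Crem-029 was called in the mixture experiment (1.58 ± 0.35, adjusted p = 0.0199) and Crem-025 (2.22 ± 0.61, 0.0231) and Crem-030 (1.23 ± 0.37, 0.0336) in the single-drug experiment. Gnaz-001 fell in the single-drug experiment by 1.16 on this scale (adjusted p = 0.00107). The single-drug count of 18 was 10 without light replicate 1 or 3, 5 without light replicate 2, 7 without no-light replicate 1 and 8 without no-light replicate 3. The authors' deposited tables of changed transcripts listed 521 transcripts in the mixture experiment, none of a member, and 622 in the single-drug experiment, of which Adcy6-201, Gnaz-001 and Pde4a-003 were of members. Against light, their log2 fold changes of Pde4a-003 were 1.02 with BRM, 0.69 with MTP, 0.23 with TAM and 1.49 with DOX. Without light the value was 0.80 (adjusted p = 0.0351 by the authors' F-test over all groups).

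Other genes of the same pathway were counted from 9 lists, to be read against the shares of all genes called with light, 13.2% and 24%. Among 18 CREB target genes 7 rose and 1 fell with light in the mixture experiment (median 0.40), and 6 rose and 1 fell in the single-drug experiment (0.37), beside medians of 0.01 and 0.02 over all genes. The nuclear receptor gene Nr4a1, an immediate early gene, rose by 1.65 ± 0.17 (adjusted p = 0.000117) and 1.69 ± 0.39 (0.00529), and the AP-1 gene Junb by 4.09 ± 0.58 (0.000741) and 2.31 ± 0.77 (0.0402). With BMT, MDB, BRM, MTP, TAM and DOX against light, 7, 6, 4, 4, 5 and 2 of the 18 were lower and 1, 1, 0, 1, 1 and 1 higher, while 9.78%, 5.93%, 7.32%, 4.91%, 4% and 5.06% of all genes were lower. Of 13 CREB relatives and coactivators 3 rose and none fell in the mixture experiment, and none rose and 3 fell in the single-drug experiment (medians 0.07 and -0.17). Creb3l1, a membrane-bound transcription factor, rose in the mixture experiment by 1.16 ± 0.29 (adjusted p = 0.0225) and had 1.07 ± 0.38 (0.0534) in the other. The coactivator Crtc1 rose in the mixture experiment by 0.41 ± 0.11 (adjusted p = 0.027) and had -0.22 ± 0.12 (0.194) in the single-drug experiment.

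Of 20 PKA anchors, inhibitors and Epac genes, 18 tested, 4 and 3 rose in the respective experiments and none fell (medians 0.12 and 0.13). The PKA anchor Akap12 rose by 1.02 ± 0.08 (adjusted p = 2.34e-05) and 1.06 ± 0.22 (0.00253), and the PKA inhibitor Pkig by 1.24 ± 0.11 (4.66e-05) in the mixture experiment, with 0.50 ± 0.22 (0.111) in the other. Among 20 other cyclases and cyclic nucleotide phosphodiesterases tested, 4 rose and 6 fell in the mixture experiment and 5 and 6 in the single-drug experiment (medians -0.02 and 0.15). Pde2a, a cGMP-stimulated phosphodiesterase, rose by 1.27 ± 0.14 (adjusted p = 0.000168) and 1.40 ± 0.22 (0.000367), and Pde6b, the rod phosphodiesterase, had -0.96 ± 0.13 (0.000577) and -1.28 ± 0.17 (0.000147). Of the 4 other G alpha genes tested 2 rose and 2 fell in each experiment (medians -0.17 and -0.36), the latter being the transducins Gnat1 of rods (-0.88 ± 0.11 and -1.44 ± 0.17) and Gnat2 of cones (-1.21 ± 0.17 and -1.54 ± 0.18), which are also photoreceptor markers.

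Among 16 G beta and gamma genes tested 1 rose and 4 fell in the mixture experiment, and 2 and 4 in the single-drug experiment (medians -0.09 and 0.14). Gnb1, the rod beta subunit, had -1.17 ± 0.16 (adjusted p = 0.000531) and -1.52 ± 0.18 (0.00011), and Gnb3, found in cones and ON bipolar cells, rose by 1.38 ± 0.10 (1.2e-05) and 0.89 ± 0.20 (0.00424). Of 25 RGS, GRK and arrestin genes tested 2 rose and 4 fell in the mixture experiment and 6 and 7 in the single-drug experiment (medians 0.05 and 0.23). Cone arrestin Arr3 had -0.68 ± 0.10 and -1.22 ± 0.16, and Rgs9bp, the anchor of the RGS protein of photoreceptors, had -0.88 ± 0.13 and -1.34 ± 0.16, all called. Of the other phospholipase C, protein kinase C and diacylglycerol kinase genes 2 rose and 3 fell of 24, and 5 and 4 of 23 (medians 0.09 and 0.28). Plcd1 rose by 1.18 ± 0.22 (adjusted p = 0.00382) and 0.86 ± 0.21 (0.0083), and Plce1 by 0.82 ± 0.13 (0.00165) and 0.88 ± 0.15 (0.000652). Of 12 receptor genes of the drugs' targets tested, 1 fell and none rose in the mixture experiment, and 2 fell and 1 rose in the single-drug experiment (medians -0.31 and -0.10). Adrb1, the beta-1 adrenergic receptor that metoprolol blocks, had -0.65 ± 0.13 (adjusted p = 0.00657) and -0.80 ± 0.15 (0.00159) with light, and the alpha-2 adrenergic receptor Adra2c had -0.85 ± 0.29 (0.082) and -0.15 ± 0.39 (0.816).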

How the data were processed

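Members were matched by gene symbol, and members, gene lists and tests were chosen with earlier results of these data known. The deposited values are expected counts per transcript, which the authors estimated with eXpress from poly(A) RNA of a stranded kit, per the labels and the submitters' processing notes. Those notes also name Trimmomatic, Bowtie2, TopHat2, edgeR, limma and the build GRCm38.p3, with versions not given in the sources used here. FPKM values were deposited raw and after TMM scaling by the authors. In the authors' deposited lists of changed transcripts are log2 fold changes, mean log2 expression, an F statistic (a score over all groups) and its p-values.

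Expected counts of the 102906 transcripts were summed per gene, rounded to whole numbers, filtered with edgeR's filterByExpr and TMM-scaled. Each experiment was fitted separately over all its groups with edgeR's quasi-likelihood test (glmQLFit, glmQLFTest; version 4.0.16 in R 4.3.3), with Benjamini-Hochberg adjustment over all genes and a threshold of 0.05. A fit of all 30 libraries compared the light effects. Transcripts were tested with limma 3.58.1 on log2(FPKM + 1). Depths of 12.0 to 25.8 M counts per library limit the precision for members of a few CPM, such as Itpr3. Each SE was taken as the absolute log2 fold change over the root of edgeR's F. The alternatives were DESeq2 1.42.0, RLE size factors, no filter, a replicate block, the lens score as a covariate, each library left out and, for transcripts, a pseudocount of 0.1 and a minimum mean of 1 FPKM. The alternatives for the Crem starts were chosen after seeing the data. The code was tested on simulated data.

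Members called with light in both experiments, and the 4 others with the smallest adjusted p in a drug comparison, were described in every library. Of each pathway list, the 2 genes ranked first by adjusted p in the mixture light comparison were named.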

Additional observations from a re-analysis of the deposited data

How the results depend on the processing

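Over the alternatives that kept all libraries, 334 fold changes of the described members kept their direction and their side of the threshold, 9 passed it newly and 16 no longer passed it. With a library left out the numbers were 355, 4 and 70. Another 4 changed sign, none of them called in either fit. Prkar2a with MDB against light was 0.071 with the lens score as a covariate and ran from -0.066 to 0.012 with each library left out, Prkar2a with BRM against light from -0.0058 to 0.14, and Itpr2 with light in the mixture experiment from -0.23 to 0.023. With DESeq2 the count of members called was 8 for MTP against light (5 by edgeR), 2 for BRM against no light (0 by edgeR) and 3 for the difference between the light effects (0 by edgeR). For MTP against light DESeq2 called 14% of the 16259 genes to which it gave an adjusted p, and edgeR called 10.3% of all genes. With the lens score as a covariate the edgeR count was 8 for TAM against light (5 without the covariate), with 11.5% of all genes called against 10.6%. Leaving out each library in turn gave counts of 5 to 7 for light in the mixture experiment, 9 to 15 for light in the single-drug experiment, 4 to 7 for BMT, 5 to 7 for MDB, 4 to 6 for BRM, 2 to 5 for MTP, 1 to 8 for TAM and 2 to 7 for DOX against light. The difference between the light effects gave 0 to 1, and each drug group against no light gave 0. The share of all genes called is not given for fits with a library left out, here or above. Those counts therefore do not compare the members with genes in general. Member transcripts called with light numbered 5 to 10 in the mixture and 5 to 13 in the single-drug experiment. The internal-start ratio of Crem was 1.68 and 2.24 with FPKM, and 1.13 to 2.05 and 1.79 to 2.74 with each library left out. The fits without a library have fewer samples, and other causes of the changes were not tested.

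Correlations between same-numbered libraries of different groups had a median of -0.012 (-0.216 to 0.556) in the mixture experiment. In the single-drug experiment the median was -0.011 (-0.262 to 0.437). Those of differently numbered libraries had medians of 0.018 (-0.494 to 0.372) and 0.012 (-0.358 to 0.453). Same-numbered libraries were thus no more alike by the median, which does not settle whether libraries were paired. With the replicate number as a block the counts of members called were 6 and 17 for light in the mixture and single-drug experiments, 7 for BMT, 7 for MDB, 5 for BRM, 4 for MTP, 4 for TAM and 6 for DOX against light, and 0 for each drug group against no light. Over all genes the block fits called 2014 of 16007 and 3650 of 16249 with light, against 2117 and 3895 without the block. For BMT, MDB, BRM, MTP, TAM and DOX against light they called 2647, 1566, 2132, 1563, 1591 and 1584 genes. Without the block these numbers were 2840, 1542, 2341, 1671, 1722 and 1927. The counts of member transcripts with the block were 7 and 16.

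Limits are 3 libraries per group, no drug without light, no wild-type retina, and low counts for Itpr3, Adcy7 and Plcb3.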
